A study of Mus musculus with 6 samples.

Results

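The 40 genes described here are molecular chaperones and the regulators that set their supply, in SL4, a luciferase-expressing mouse colorectal cancer cell line. They were chosen by symbol from the 53700 genes of the deposited table, and each symbol named a single Ensembl identifier. Of these, 20 belong to the heat shock system of the cytosol, nucleus and mitochondria, and 20 to the folding system of the endoplasmic reticulum (ER) and its unfolded protein response (UPR). Poly-A RNA of 3 libraries of SL4 cells without SEMA6A overexpression (pLV-Control) was compared with that of 3 libraries of SL4 cells that stably overexpress SEMA6A from a lentivirus (pLV-SEMA6A). The methods describe a single stable pLV-SEMA6A line, so an effect of SEMA6A and a difference between cell lines cannot be told apart, and nothing in the labels says that the 3 libraries of a group came from separate cultures. The adjusted p-values may therefore measure technical spread only.

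Chaperones bind unfolded stretches of other proteins and release them in cycles of ATP hydrolysis, with J proteins delivering the clients and nucleotide exchange factors resetting the cycle. In the cytosol, unfolded protein frees the factor HSF1, which binds heat shock elements and induces Hsp70, Hsp90 and small heat shock proteins. In the ER, unfolded protein draws the Hsp70 BiP (encoded by Hspa5) away from the sensors IRE1 (Ern1), PERK (Eif2ak3) and ATF6. IRE1 then splices the Xbp1 transcript, PERK slows translation, and cleaved ATF6 enters the nucleus, where it acts with NF-Y on ER stress response elements. Cancer cells that secrete or grow quickly are known to depend on both systems.

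Levels were deposited in TPM, which corrects for length and fixes the library total, so the files hold no sequencing depth and set no detection limit. Library sums ran from 977400 to 986444 TPM, of which the 40 genes held between 1.25% and 1.26%. Sema6a was listed at 0 throughout pLV-Control, while pLV-SEMA6A gave 98.7, 118 and 112 TPM, the direction that the labels give. Of the labelled tissue, 11 of 12 markers of colon epithelium had a mean below 1 TPM, and Epcam, Cdx1 and Cdx2 were listed at 0 in every library. The summed level of those 12 markers was 1.97 to 3.04 TPM in pLV-Control and 0.53 to 1.39 TPM in pLV-SEMA6A. Markers of other cell types were also low, with sums of 15.78 to 16.59 and 13.49 to 14.91 TPM for 6 fibroblast markers, mainly Pdgfrb, 0.77 to 2.06 and 0.97 to 1.27 TPM for 7 leukocyte markers, and 0.33 to 0.54 and 0.17 to 0.54 TPM for 5 endothelial markers, in pLV-Control and pLV-SEMA6A respectively. Their part in the results was not tested. In these bulk libraries fewer cells of a type and less RNA per cell cannot be told apart.

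The promoters of several ER genes carry the element through which the UPR is known to act, and these are shown because their genes did not change in the same direction. Promoter sequences, from 250 bases before to 50 bases after each start site, were taken from RefSeq on GRCm38.p6 and were listed for 31 of the 40 genes. The ER stress response element (ERSE) was searched as CCAAT and CCACG with 9 free bases between them, ERSE-II as ATTGG and CCACG with 1 free base between them, the UPR element as TGACG directly followed by TGG, and the heat shock element (HSE) as GAA, TTC and GAA with 2 free bases between neighbours, each on both strands. ERSE and ERSE-II share the CCACG, but no gene of the 31 had matches to both. The other 9 genes had no promoter listed and were not searched. ERSE occurred in the promoters of 6 of 16 ER genes and 0 of 15 heat shock genes, against 0.137% of all 27025 genes with a promoter. ERSE-II occurred in 2 of the 16 ER genes, Herpud1 and Dnajb11, against 0.0444% of all genes, and the match of Dnajb11 lay after its start site. HSE occurred in 3 of the 15 heat shock genes, Hsph1, Hspd1 and Hspe1, against 0.662% of all genes, and both matches of Hsph1 also lay after the start site. The UPR element had no match in these genes and occurred in 0.714% of all genes. The stretches around the matches that lie before the start site are printed 5′ to 3′ on the strand of the gene, with the matched element in capitals. Hspd1 and Hspe1 are transcribed away from each other from the same stretch, which is given once, as Hspe1, with 2 overlapping HSE matches.
Hspa5, chr2:34771985-34772083, plus strand: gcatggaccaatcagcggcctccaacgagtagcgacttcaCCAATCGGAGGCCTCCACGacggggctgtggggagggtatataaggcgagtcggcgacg
Hsp90b1, chr10:86705493-86705694, minus strand: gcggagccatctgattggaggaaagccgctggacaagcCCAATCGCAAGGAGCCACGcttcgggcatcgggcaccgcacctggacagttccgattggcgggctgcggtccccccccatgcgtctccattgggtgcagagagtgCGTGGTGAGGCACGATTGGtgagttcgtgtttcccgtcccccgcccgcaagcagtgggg
Creld2, chr15:88819480-88819578, plus strand: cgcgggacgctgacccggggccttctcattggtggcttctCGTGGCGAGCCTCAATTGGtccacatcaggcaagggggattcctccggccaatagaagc
Dnajc3, chr14:118937787-118937885, plus strand: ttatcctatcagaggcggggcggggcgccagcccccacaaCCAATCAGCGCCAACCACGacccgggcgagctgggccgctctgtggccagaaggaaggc
Pdia6, chr12:17266451-17266549, plus strand: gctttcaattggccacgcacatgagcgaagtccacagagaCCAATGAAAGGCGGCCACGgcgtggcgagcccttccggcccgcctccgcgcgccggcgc
Syvn1, chr19:6046492-6046575, plus strand: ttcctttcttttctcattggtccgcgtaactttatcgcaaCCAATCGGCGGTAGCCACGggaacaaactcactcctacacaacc
Herpud1, chr8:94386337-94386427, plus strand: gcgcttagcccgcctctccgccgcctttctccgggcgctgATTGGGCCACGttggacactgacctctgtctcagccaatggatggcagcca
Hspe1, chr1:55088019-55088116, plus strand: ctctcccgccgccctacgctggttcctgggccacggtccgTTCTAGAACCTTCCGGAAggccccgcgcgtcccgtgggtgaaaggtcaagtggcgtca

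Of the 20 ER and UPR genes, all 20 were tested, and 9 rose and 7 fell in pLV-SEMA6A at an adjusted p under 0.05 from limma, while 4 did not pass. Among all 12510 genes tested, 47.6% were called at that threshold, 19.5% higher and 28.2% lower. Of the 20 heat shock genes, 18 were tested, of which 8 rose, 5 fell and 5 did not pass. The median log2 fold change was 0.0181 for the ER genes and −0.0379 for the heat shock genes, against −0.0638 over all genes tested, and the 38 genes tested had at least 4.43 TPM in each library. Median centring of the libraries was tried, and every log2 fold change moved up by 0.0932. The split was then 11 higher and 7 lower for the ER genes and 9 higher and 4 lower for the heat shock genes, and that of all genes turned from 2436 higher and 3523 lower to 3370 higher and 2474 lower, which is 26.9% and 19.8% of them. The libraries of the groups did not overlap for 17 of the 20 ER genes, 9 above and 8 below pLV-Control, and for 15 of the 18 heat shock genes, 8 above and 7 below, against 23.8% above and 34.7% below among all genes tested. Members of both systems rose while others fell. With a minimum log2 fold change of 0.5, 3 ER genes rose and 2 fell, and 0 heat shock genes rose and 2 fell, where 15.9% of all genes passed, 5.12% higher and 10.8% lower.

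**Figure D1:**
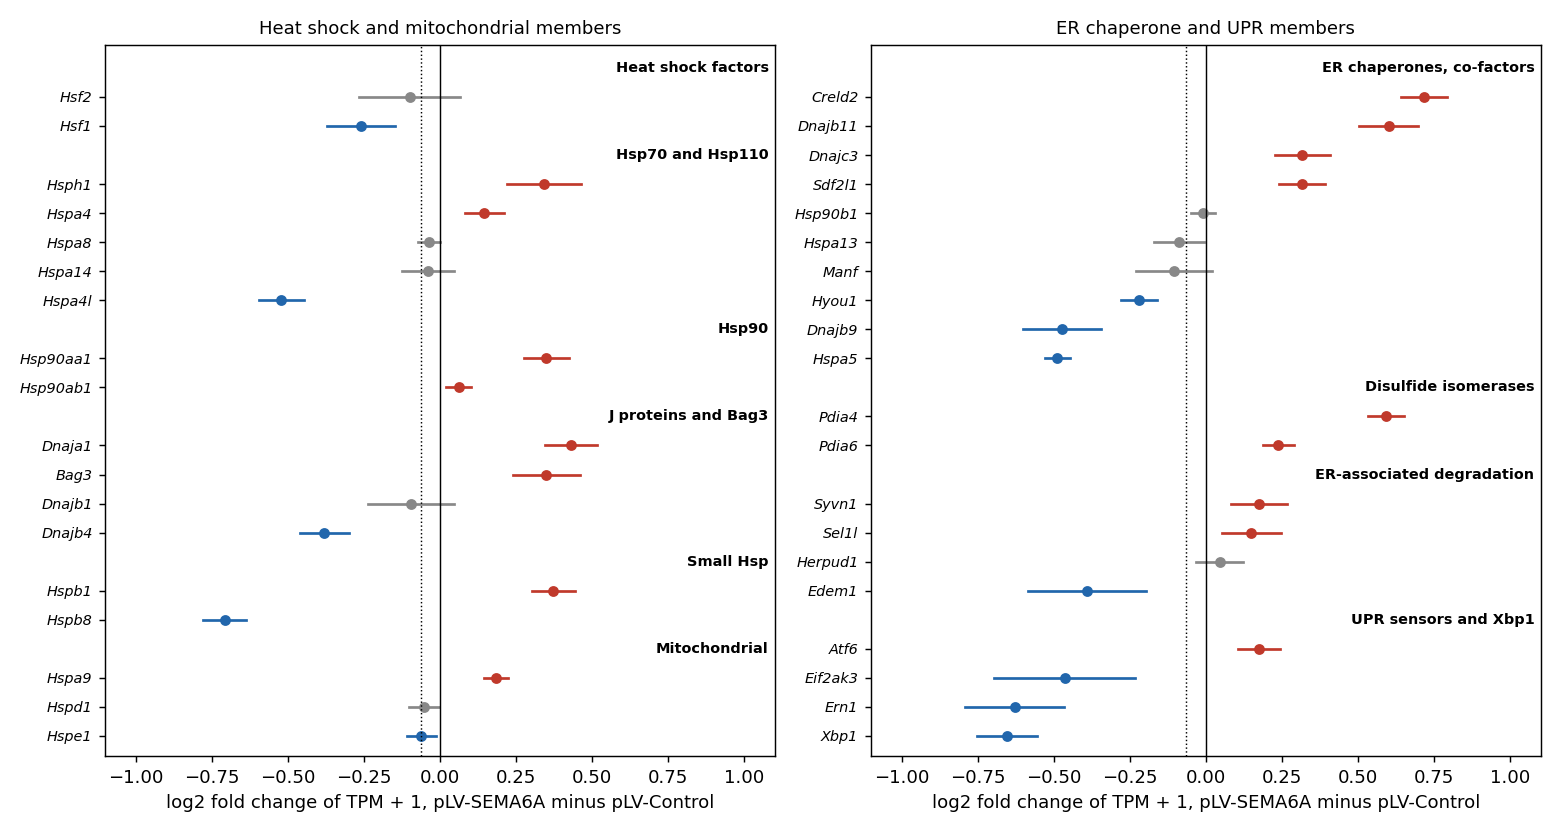
Log2 fold change of TPM + 1 (x axis, pLV-SEMA6A minus pLV-Control) for the 38 genes tested, grouped by role, with lines for the 95% interval of the limma fit, red for genes called higher, blue for lower and grey for not called. The dotted line is the median of all genes tested, −0.0638, and in each panel genes lie on both sides of it, from −0.71 for Hspb8 to 0.43 for Dnaja1 on the left and from −0.65 for Xbp1 to 0.72 for Creld2 on the right.

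Among the sensors and factors of the UPR, 3 of 4 fell, where 28.2% of all genes tested were lower. Xbp1, whose spliced form is the transcription factor that IRE1 activates, measured 138, 131 and 125 TPM in the pLV-Control cells, against 85.1, 82.5 and 81.7 TPM in the pLV-SEMA6A cells. All pLV-SEMA6A libraries lay below all pLV-Control libraries, with means of 131 ± 6.15 and 83.1 ± 1.75 TPM (SD, n = 3 per group) and a log2 fold change of −0.65 with SE 0.04 (limma adjusted p = 5.63e-05). TPM per gene does not separate spliced from unspliced Xbp1. Ern1, which encodes IRE1 itself, measured 97.9, 94.1 and 91.8 TPM in the pLV-Control cells, against 55.6, 66.7 and 60.7 TPM in the pLV-SEMA6A cells. The groups did not overlap, as was the case for 58.5% of all genes tested, and the log2 fold change was −0.63 with SE 0.07 (limma adjusted p = 0.000518). Eif2ak3, which encodes PERK, was the lowest of the genes tested, with 6.72, 7.32 and 7.68 TPM in the pLV-Control cells against 5.51, 5.01 and 4.43 TPM in the pLV-SEMA6A cells. It too fell without overlap, with a log2 fold change of −0.46 with SE 0.10 (limma adjusted p = 0.00824). Atf6 went the other way, with 80.8, 78.8 and 82.3 TPM in the pLV-Control cells against 91.3, 90.5 and 91.5 TPM in the pLV-SEMA6A cells. Its rise was small, with a log2 fold change of 0.17 with SE 0.03 (limma adjusted p = 0.0032), and the 3 pLV-SEMA6A libraries were the 3 highest.

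BiP, the most abundant of the 40 transcripts in pLV-Control, fell in pLV-SEMA6A. Hspa5 measured 1909, 1892 and 1913 TPM in the pLV-Control cells, against 1351, 1381 and 1342 TPM in the pLV-SEMA6A cells. The groups lay far apart, with means of 1905 ± 11.5 and 1358 ± 20.0 TPM (SD, n = 3 per group) and a log2 fold change of −0.49 with SE 0.02 (limma adjusted p = 5.98e-06). Hsp90b1, which encodes GRP94, the Hsp90 of the ER, measured 1327, 1347 and 1353 TPM in the pLV-Control cells, against 1337, 1323 and 1341 TPM in the pLV-SEMA6A cells. Its groups overlapped, and the log2 fold change of −0.0095 had a 95% interval from −0.0481 to 0.0291. After median centring it was 0.0837 and passed (limma adjusted p = 0.0112), so the direction of Hsp90b1 depends on the scaling. The ratio of Hspa5 to Hsp90b1 was thus 1.40 to 1.44 in the pLV-Control libraries and 1.00 to 1.04 in the pLV-SEMA6A libraries. Transcripts of Hsp90b1 share 12.3% of their 31-base stretches with other genes, and those of Hspa5 0.0467%.

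The helpers that act on BiP were split. Among its J proteins, Dnajb11 measured 69.9, 74.7 and 73.8 TPM in the pLV-Control cells, against 110.1, 108 and 115 TPM in the pLV-SEMA6A cells, a log2 fold change of 0.60 with SE 0.04 (limma adjusted p = 7.11e-05). Dnajc3, also known as p58IPK, rose to 66.7 ± 0.90 TPM from 53.3 ± 2.06 TPM (SD, n = 3 per group). Dnajb9, a J protein that also restrains IRE1, fell to 23.7 ± 0.88 TPM from 33.3 ± 1.72 TPM (SD, n = 3 per group), which is a log2 change of −0.47 (limma adjusted p = 0.000619). The groups overlapped in none of Dnajb11, Dnajc3 and Dnajb9, as was the case for 58.5% of all genes tested. Of other J proteins of the ER, Dnajc10 rose by 0.12 and Sec63 fell by 0.20 on the log2 scale, and Dnajc1 did not pass. Hyou1, which encodes GRP170, an exchange factor of BiP, fell to 175 ± 1.47 TPM from 203.5 ± 3.98 TPM (SD, n = 3 per group). Sdf2l1, a partner of Dnajb11, rose to 90.2 ± 2.03 TPM from 72.3 ± 1.33 TPM (SD, n = 3 per group), which is a log2 change of 0.32. Hspa13, a distant Hsp70 of microsomes, had a log2 fold change of −0.0874 (limma adjusted p = 0.0766).

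Creld2, Pdia4 and Pdia6 were higher in pLV-SEMA6A. Creld2, a secreted ER stress protein, measured 103, 100.3 and 99.6 TPM in the pLV-Control cells, against 164, 165 and 172 TPM in the pLV-SEMA6A cells. It had the largest log2 fold change of the 40 genes upwards, 0.72 with SE 0.03 (limma adjusted p = 1.42e-05), a 1.65-fold higher mean. Pdia4, an isomerase with several thioredoxin domains, measured 209, 209 and 211 TPM in the pLV-Control cells, against 325, 311 and 314 TPM in the pLV-SEMA6A cells. The 3 values of each group lay close together and the log2 fold change was 0.59 with SE 0.02 (limma adjusted p = 1.11e-05). Pdia6, an isomerase that also acts on IRE1, rose less, from 631 ± 10.7 to 744 ± 10.2 TPM (SD, n = 3 per group), which is a log2 change of 0.24. Manf, a secreted ER stress protein that binds BiP, measured 592, 578 and 519.6 TPM in the pLV-Control cells, against 509, 537 and 524 TPM in the pLV-SEMA6A cells. Its groups overlapped through pLV-Control replicate 3, and its log2 fold change of −0.10 (limma adjusted p = 0.14) became −0.16 (limma adjusted p = 0.0106) without that library.

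**Figure D2:**
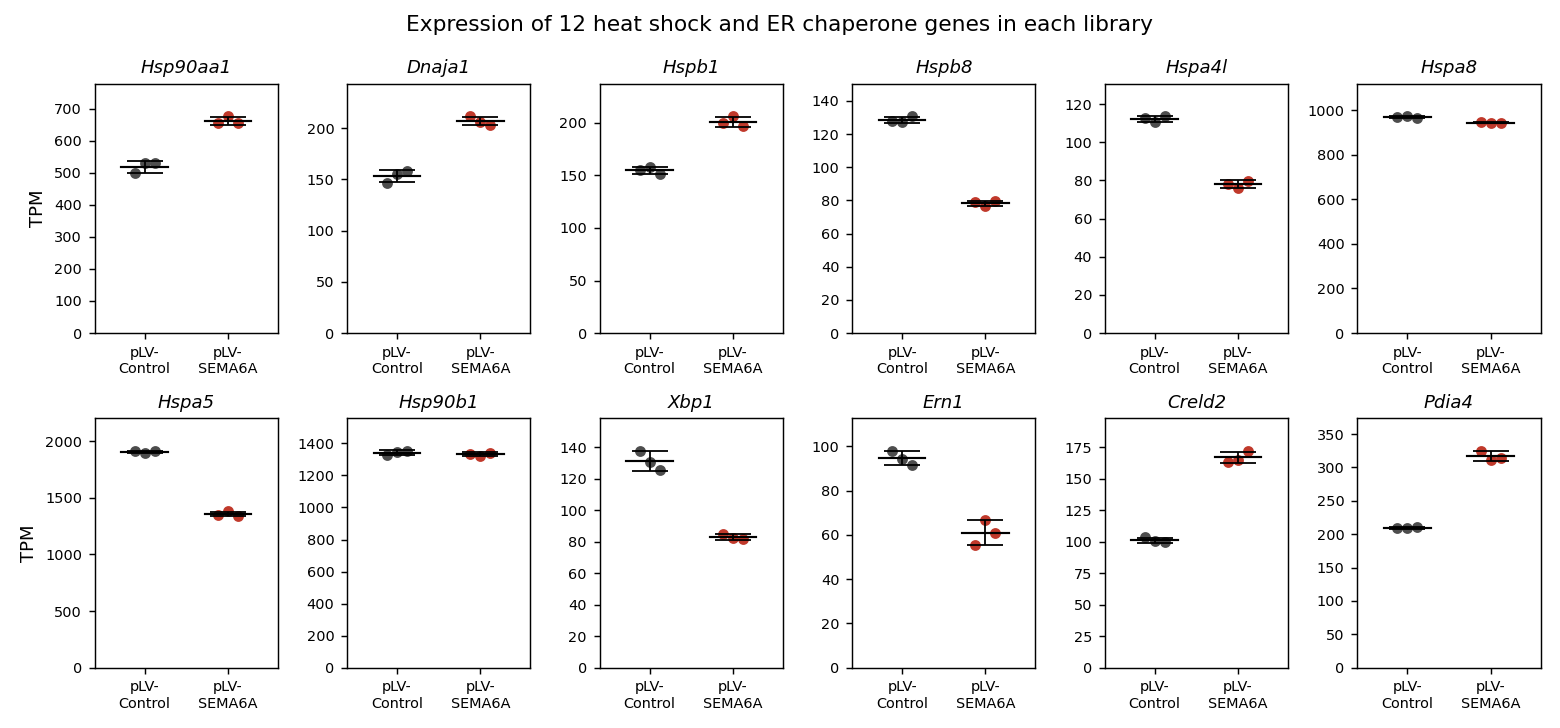
TPM (y axis, from 0) of 12 of the 40 genes in each library, with points for the 3 libraries of a group, a wide line for the mean and bars for the SD. The groups overlap in Hsp90b1 and in no other gene shown, and Hspa5 lies between 1342 and 1381 TPM in pLV-SEMA6A against 1892 to 1913 TPM in pLV-Control. They overlap in 6 of the 38 genes tested, and do not overlap for 58.5% of all genes tested.

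The degradation machinery of the ER was also split. Syvn1, the ubiquitin ligase HRD1, rose to 23.3 ± 0.18 TPM from 20.6 ± 0.24 TPM (SD, n = 3 per group), which is a log2 change of 0.17 (limma adjusted p = 0.0106). Its partner Sel1l rose to 78.0 ± 2.88 TPM from 70.2 ± 2.07 TPM (SD, n = 3 per group), which is a log2 change of 0.15 (limma adjusted p = 0.0213). That call did not hold without pLV-Control replicate 1 (adjusted p = 0.0663), pLV-Control replicate 2 (adjusted p = 0.0649) or pLV-SEMA6A replicate 2 (adjusted p = 0.0563). Edem1, a lectin that passes misfolded glycoproteins to degradation and a known target of XBP1, fell to 42.9 ± 3.66 TPM from 56.5 ± 4.36 TPM (SD, n = 3 per group), which is a log2 change of −0.39 (limma adjusted p = 0.00788). Herpud1, a membrane protein that assembles with HRD1, had a log2 fold change of 0.0457 with overlapping groups (limma adjusted p = 0.285), and of 0.139 after median centring, when it passed (limma adjusted p = 0.01).

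The 6 genes with an ERSE before the start site thus held 4 that rose, Creld2, Dnajc3, Pdia6 and Syvn1, 1 that fell, Hspa5, and 1 that did not pass, Hsp90b1. The printed element of Hspa5 lies 47 to 65 bases before its start and that of Creld2 108 to 126 bases before, on the opposite strand. Hsp90b1 has 2 matches. Of the 2 genes with ERSE-II, Dnajb11 rose and Herpud1 did not pass. Among all genes tested, 19.5% were higher and 28.2% lower, and 26.9% and 19.8% after median centring. Hsp90b1 and Herpud1 passed as higher after that centring (limma adjusted p = 0.0112 and 0.01), so the split depends on the scaling. Xbp1, Ern1, Eif2ak3, Dnajb9 and Edem1, which fell, and Pdia4, Sdf2l1 and Sel1l, which rose, had no match to either pattern in the window, which says nothing of other sites.

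**Figure D3:**
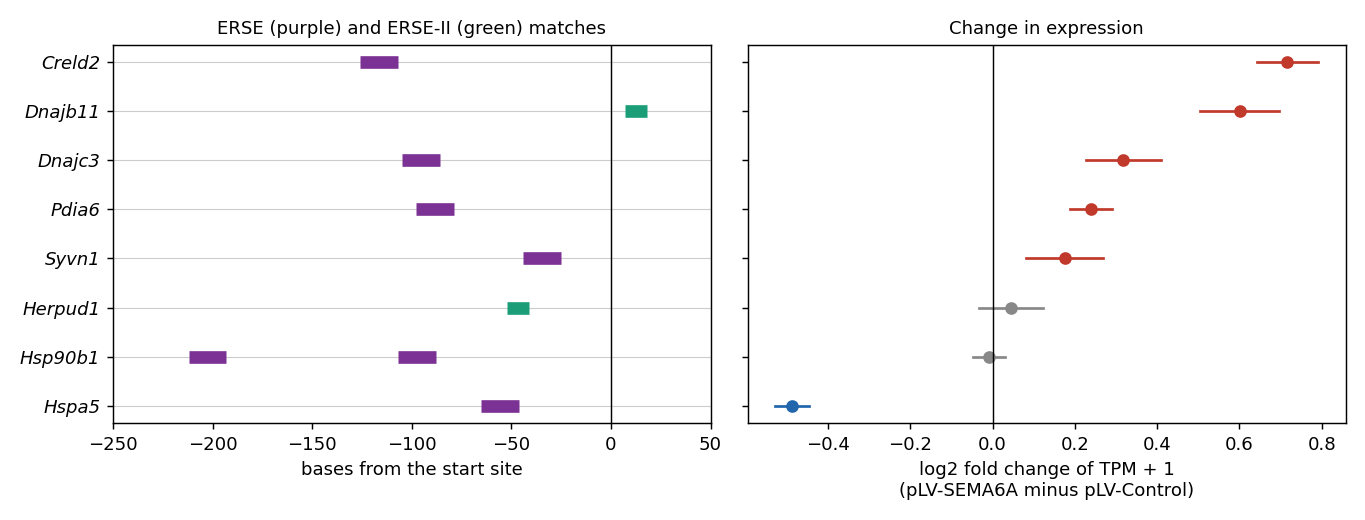
Position of ERSE (purple) and ERSE-II (green) matches in bases from the start site (left) beside the log2 fold change of TPM + 1 with its 95% interval (right) for the 8 ER genes with a match, red for higher, blue for lower and grey for not called. Genes with the same element range from −0.49 for Hspa5 to 0.72 for Creld2.

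In the cytosol, both the stress-inducible Hsp90, Hsp90aa1, and the constitutive one, Hsp90ab1, rose. Hsp90aa1 measured 498, 529.5 and 529.9 TPM in the pLV-Control cells, against 654, 676 and 655 TPM in the pLV-SEMA6A cells. The groups did not overlap, with a log2 fold change of 0.35 with SE 0.03 (limma adjusted p = 0.000237). Hsp90ab1 rose to 1159.9 ± 12.5 TPM from 1112 ± 12.8 TPM (SD, n = 3 per group), which is a log2 change of 0.0612 (limma adjusted p = 0.0285). That call was lost without any of pLV-Control replicates 1, 2 and 3 and pLV-SEMA6A replicates 1 and 2, at adjusted p-values of 0.0512 to 0.0864. The ratio of Hsp90aa1 to Hsp90ab1 was 0.454 to 0.475 in pLV-Control and 0.564 to 0.577 in pLV-SEMA6A. Transcripts of Hsp90aa1 share 51.5% of their 31-base stretches with other genes, mainly the pseudogene Gm12346, which averaged 0.27 TPM in the pLV-Control libraries and 0.38 TPM in the others.

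Of the cytosolic Hsp70 transcripts, the constitutive one had the highest level. Hspa8, also known as Hsc70, measured 968, 973 and 966 TPM in the pLV-Control cells, against 947, 944 and 944 TPM in the pLV-SEMA6A cells. All pLV-SEMA6A libraries were lower, but the log2 fold change of −0.0365 (95% interval −0.0724 to −5e-04) did not pass adjustment (limma adjusted p = 0.0875). After median centring it was 0.0568 (limma adjusted p = 0.0301), so its direction depends on the scaling. The heat-inducible Hsp70 genes were near 0. Hspa1a measured 0, 0 and 0.07 TPM in the pLV-Control cells, against 0, 0.03 and 0 TPM in the pLV-SEMA6A cells. Hspa1b measured 0.43, 0.9 and 0.55 TPM in the pLV-Control cells, against 0.67, 0.78 and 0.86 TPM in the pLV-SEMA6A cells, with overlap. Both were below the minimum mean of 1 TPM and were not tested, and they share 63.8% of the 31-base stretches of Hspa1a, so their reads may not be assigned to the right copy. Hspa14, an Hsp70 that works at the ribosome, had a log2 fold change of −0.0393 with overlapping groups.

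The Hsp110 genes, whose proteins exchange the nucleotide of Hsp70, went apart. Hspa4l measured 113, 111 and 114 TPM in the pLV-Control cells, against 78.2, 75.8 and 79.8 TPM in the pLV-SEMA6A cells, a log2 fold change of −0.52 with SE 0.03 (limma adjusted p = 4.75e-05). Hsph1 measured 119, 119 and 122 TPM in the pLV-Control cells, against 152, 143 and 164 TPM in the pLV-SEMA6A cells, a log2 fold change of 0.34 with SE 0.05 (limma adjusted p = 0.00204). Hspa4 rose to 158 ± 1.07 TPM from 143 ± 3.47 TPM (SD, n = 3 per group), which is a log2 change of 0.15. In pLV-Control, Hspa4l was at 0.756 to 0.809 of the level of Hspa4, and in pLV-SEMA6A at 0.480 to 0.502.

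Hspb1 rose and Hspb8 fell, both small heat shock proteins. Of others of that family, Cryab and Hspb2 fell and Hspb6 rose, with log2 fold changes of −0.45, −0.62 and 0.17. Hspb8, a partner of Bag3 in chaperone-assisted autophagy, measured 128, 127 and 131 TPM in the pLV-Control cells, against 78.7, 76.6 and 79.7 TPM in the pLV-SEMA6A cells. Its log2 fold change of −0.71 with SE 0.03 (limma adjusted p = 1.11e-05) was the largest fall among the 38 genes tested. Hspb1, also known as Hsp25 in the mouse, measured 155, 158 and 151 TPM in the pLV-Control cells, against 199.5, 206 and 197 TPM in the pLV-SEMA6A cells, a log2 fold change of 0.37 with SE 0.03 (limma adjusted p = 0.000151). Hspb1 was thus at 1.16 to 1.25 of the level of Hspb8 in pLV-Control and at 2.47 to 2.70 of it in pLV-SEMA6A. Its transcripts share 55.4% of their 31-base stretches with other genes, mainly the pseudogene Hsp25-ps1, averaging 0.29 TPM in pLV-Control and listed at 0 in pLV-SEMA6A. Bag3 itself rose to 29.7 ± 0.97 TPM from 23.1 ± 0.76 TPM (SD, n = 3 per group), which is a log2 change of 0.35 (limma adjusted p = 0.00122).

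The J proteins of Hsp70 differed as well. Dnaja1, a J protein of the cytosol, measured 147, 156 and 158 TPM in the pLV-Control cells, against 212, 206 and 204 TPM in the pLV-SEMA6A cells. Its log2 fold change of 0.43 with SE 0.04 (limma adjusted p = 0.000177) was the largest rise among the heat shock genes, and 22.6% of its 31-base stretches occur in other genes. Dnajb4 fell to 37.1 ± 0.08 TPM from 48.6 ± 1.05 TPM (SD, n = 3 per group), which is a log2 change of −0.38 (limma adjusted p = 0.000227). Dnajb1, the J protein that HSF1 is best known to induce, measured 27.0, 29.7 and 30.7 TPM in the pLV-Control cells, against 26.4, 26.8 and 28.2 TPM in the pLV-SEMA6A cells. Its groups overlapped, with a log2 fold change of −0.0953 (95% interval −0.236 to 0.0451). Hsf1 measured 72.9, 81.9 and 76.1 TPM in the pLV-Control cells, against 64.1, 64.5 and 63.5 TPM in the pLV-SEMA6A cells, a log2 fold change of −0.26 with SE 0.05 (limma adjusted p = 0.00434). Hsf2, a related factor, had a log2 fold change of −0.0992 with overlapping groups (limma adjusted p = 0.277). HSF1 is controlled mainly at the protein, which was not measured here.

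Of the mitochondrial chaperones, the Hsp70 rose, and the chaperonin genes had small differences whose direction turned after median centring. Hspa9, also known as mortalin, rose to 1353 ± 17.4 TPM from 1191 ± 8.13 TPM (SD, n = 3 per group), which is a log2 change of 0.18 with SE 0.02 (limma adjusted p = 0.000269). Hspd1, which encodes Hsp60, measured 717, 717 and 719 TPM in the pLV-Control cells, against 702, 676 and 698 TPM in the pLV-SEMA6A cells, a log2 fold change of −0.053 (95% interval −0.102 to −0.0036, limma adjusted p = 0.0748). Hspe1, which encodes Hsp10 and shares the promoter stretch printed above with Hspd1, fell to 927 ± 18.4 TPM from 968 ± 6.07 TPM (SD, n = 3 per group), which is a log2 change of −0.0614 (limma adjusted p = 0.0436). That call was lost without any of pLV-Control replicates 1, 2 and 3 and pLV-SEMA6A replicates 1 and 2, at adjusted p-values of 0.0732 to 0.12, and after median centring the log2 fold change was 0.0318. Hspd1 and Hspe1 share 53.1% and 30.5% of their 31-base stretches with other genes, mainly processed copies.

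Genes that work with these chaperones were described from lists of their own. Of 22 co-chaperones of Hsp70 and Hsp90, 12 rose, 1 fell and 9 did not pass, with a median log2 fold change of 0.18. Ahsa1, which activates the ATPase of Hsp90, measured 137, 134 and 133 TPM in the pLV-Control cells, against 195, 187.5 and 191 TPM in the pLV-SEMA6A cells. Stip1, which links Hsp70 to Hsp90, rose to 334 ± 3.15 TPM from 241 ± 2.84 TPM (SD, n = 3 per group), and the log2 fold changes were 0.50 for Ahsa1 and 0.47 for Stip1. Cdc37l1 was the gene that fell, with a log2 fold change of −0.25. Among a list of 14 further J proteins, 8 rose and 1 fell, with 0.81 for Dnajc9, which also chaperones histones, 0.59 for Dnajb14 and −0.61 for Dnaja4. Among all genes tested 19.5% rose and 28.2% fell. After median centring, 17 of the co-chaperones were higher, and 8 of the further J proteins were higher and 1 lower. The shares over all genes tested were then 26.9% higher and 19.8% lower. Cdc37l1 was not called after median centring or without pLV-Control replicate 3, pLV-SEMA6A replicate 2 or pLV-SEMA6A replicate 3, which left 0 lower, and without pLV-Control replicate 1 the J proteins held 2 lower.

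Of the 14 genes of the CCT chaperonin and prefoldin, which fold actin and tubulin, 6 rose and 3 fell. Their log2 fold changes ran from −0.26 for Pfdn5 to 0.76 for Pfdn6. For this list and the others of this paragraph, the shares over all genes tested were 19.5% higher and 28.2% lower. After median centring those shares were 26.9% and 19.8%. Of 15 other mitochondrial chaperones and proteases, 4 rose and 3 fell, with 0.38 for Grpel1, an exchange factor of mitochondrial Hsp70, and −0.38 for Clpb. After median centring 9 were higher and 1 lower, and 1 was lower without pLV-Control replicate 1, pLV-Control replicate 3 or pLV-SEMA6A replicate 3. Of 18 other genes linked to heat shock, 13 were tested, and 2 rose and 6 fell. Hikeshi, the nuclear import carrier of Hsp70, rose with a log2 fold change of 0.47. The rises numbered 1 in place of 2 without pLV-Control replicate 2 or 3 or without any 1 of the pLV-SEMA6A libraries.

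Among 29 lectin chaperones, disulfide isomerases and related ER enzymes, 8 rose, 12 fell and 9 did not pass, and after median centring 12 were higher and 9 lower. The shares over all genes tested were 19.5% higher and 28.2% lower, and 26.9% and 19.8% after median centring. Of other isomerase-like genes, Txndc11, Txndc5, Txndc12 and Erp44 fell, Tmx1 rose by 0.35 on the log2 scale, and P4hb, Tmx3 and Erp29 did not pass. After median centring Txndc12 no longer passed (−0.0123, limma adjusted p = 0.721). P4hb and Erp29 then passed as higher (limma adjusted p = 0.0124 and 0.0207). Pdia3, the isomerase that works with calnexin and calreticulin, measured 372, 381 and 372 TPM in the pLV-Control cells, against 589.8, 584 and 601 TPM in the pLV-SEMA6A cells, a log2 fold change of 0.66 with SE 0.02 (limma adjusted p = 4.52e-06). Sil1, an exchange factor of BiP, measured 134, 131 and 133 TPM in the pLV-Control cells, against 70.8, 73.8 and 73.6 TPM in the pLV-SEMA6A cells, a log2 fold change of −0.86 with SE 0.03 (limma adjusted p = 5.03e-06). Sil1 and Hyou1, the exchange factors of BiP measured here, were thus both lower. Pdia5 had a log2 fold change of −0.79 and Cnpy2 of 0.62. Of 28 further genes of ER-associated degradation, 27 were tested, and 7 rose and 9 fell, with 0.55 for Vcp, the ATPase that extracts substrates from the ER, and −0.73 for Edem2. After median centring 11 of the 27 were higher and 3 lower, and the shares over all genes are those given above for each scaling.

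Of 16 further UPR regulators, 14 were tested, of which 3 rose and 4 fell, and 1 rose without pLV-Control replicate 2, pLV-Control replicate 3 or pLV-SEMA6A replicate 2. That split was close to the shares over all genes tested, 19.5% higher and 28.2% lower. Nfyc and Nfya, which encode subunits of the CCAAT-binding factor NF-Y, had log2 fold changes of 0.97 (limma adjusted p = 0.00079) and −0.38 (limma adjusted p = 0.000563). Creb3l2, a factor of the ATF6 kind, fell to 4.65 ± 0.74 TPM from 9.30 ± 0.60 TPM (SD, n = 3 per group), which is a log2 change of −0.87. Of 14 genes around PERK and ATF4, 6 rose and 4 fell, beside the same shares over all genes. After median centring 9 of the 14 were higher and 3 lower, against 26.9% and 19.8% of all genes tested. Ddit3, which encodes the death-linked factor CHOP, measured 685, 724.5 and 735 TPM in the pLV-Control cells, against 518, 519 and 522 TPM in the pLV-SEMA6A cells, a log2 fold change of −0.46 with SE 0.03 (limma adjusted p = 6.05e-05). Atf3, another stress factor, rose to 72.6 ± 2.86 TPM from 40.5 ± 1.71 TPM (SD, n = 3 per group), which is a log2 change of 0.82. Atf4 itself had a log2 fold change of −0.0163 and did not pass (limma adjusted p = 0.479). After median centring it was 0.0769 and passed (limma adjusted p = 0.0227), so the direction of Atf4 depends on the scaling.

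**Figure D4:**
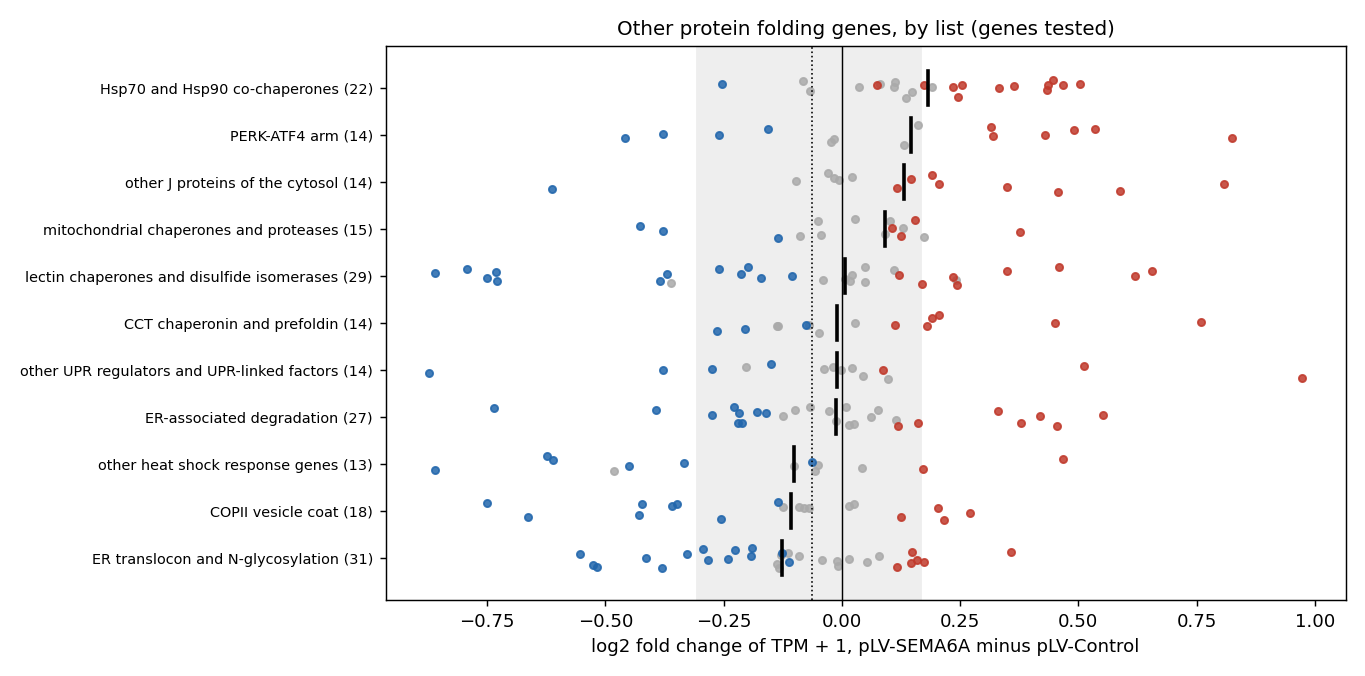
Log2 fold change of TPM + 1 (x axis) for the tested genes of 11 further lists of protein folding, secretion and stress genes, with a point per gene (red higher, blue lower, grey not called) and a black bar for the median of the list. The grey band spans the middle range of all genes tested, −0.31 to 0.17, and the medians lie between −0.13 for the ER translocon and 0.18 for the co-chaperones.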

How the data were processed

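Per the methods, poly-A RNA of SL4 cells was fragmented, primed at random and read on an Illumina instrument. The submitters' notes name HISAT, Bowtie2, RSEM and the build mm39 without roles, and strandedness is not given in the sources used here. The authors deposited TPM per library with 2 decimals, and the mean TPM of each group, which was not used. The methods name DESeq2, which needs counts that TPM does not hold, so log2(TPM + 1) was fitted with limma 3.58.1 (R 4.3.3, trend option, no covariate) for 12510 genes averaging 1 TPM or more, with Benjamini-Hochberg adjustment over all of them. A fold change on this scale understates that of low genes, and an exact permutation test of 3 against 3 libraries cannot go below p = 0.1.

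The 40 genes, the other lists and the promoter patterns were chosen with earlier results of these data known. Genes given in every library by rule are those called past an absolute log2 fold change of 0.5 and fixed members of each role (Hsf1, Hsp90aa1, Hspa8, Hspa1a, Hspa1b, Hspd1, Hspa5, Hsp90b1, Xbp1, Atf6, Ern1 and Eif2ak3), and up to 2 called genes in each direction of each other list. Library values of Dnaja1, Dnajb1, Hsph1, Hspb1 and Manf were added after their values were seen. So was the naming of Atf4, Dnajc10, Sec63, Dnajc1, Cryab, Txndc11, Txndc5, Txndc12, Erp44, P4hb, Tmx1, Tmx3 and Erp29. Stretches of 31 bases were compared on both strands of GENCODE M21 transcripts (GRCm38), a build other than mm39. On simulated data with 200 changed genes among 12510, the fit recovered 48% of log2 changes of 0.5 and 86.2% of those of 1. In the measured data 5959 of the 12510 genes were called, far more than were changed in the simulation. Those recovery shares may therefore not hold for the genes described here. A gene that did not pass may still have changed. Every column of library values was mapped to a sample. Libraries correlated at r = 0.967 to 0.979 within groups and 0.941 to 0.957 between them, over the genes tested.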

Additional observations from a re-analysis of the deposited data

How the results depend on the processing

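The alternatives were a pseudocount of 0.1, no filter and a minimum of 5 TPM, the replicate number as a block, median centring, rescaling without mitochondrially encoded genes and the 10 highest genes of each library, limma without trend and leaving out each library. Of 494 values of the 38 genes under these alternatives, 465 kept direction and call, and 7 reversed in sign. Under median centring these were Hspa8 (0.0568), Hspa14 (0.0539), Hspd1 (0.0403), Hspe1 (0.0318), Hsp90b1 (0.0837) and Hspa13 (0.0059), and under the rescaling Hsp90b1 (0.026), all as log2 fold changes. The median log2 fold change moved to 0.0553 for the heat shock genes and 0.1113 for the ER genes under centring, which adds a constant, and to 0.0536 for the ER genes under the rescaling. A minimum log2 fold change of 0.5 left 0 heat shock genes higher and 2 lower, 3 ER genes higher and 2 lower, and 640 of all genes higher and 1347 lower.

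Libraries of the same number did not deviate together (correlations of −0.0795 to −0.0228), and 0 of 6 libraries correlated best with their own number. With the replicate block, 7 heat shock genes were higher and 4 lower, 9 ER genes were higher and 7 lower, and 2168 of all genes were higher and 3059 lower. Hsp90ab1 (limma adjusted p = 0.0744) and Hspe1 (limma adjusted p = 0.106) were the calls of the 40 genes lost to it, and the call of Cdc37l1 was lost too (limma adjusted p = 0.0606), which left 0 co-chaperones lower, as were those of Dnajc10 (0.0611) and Sec63 (0.0505). Hsp90ab1 and Hspe1 were also lost without a filter (0.0921 and 0.113) and without trend (0.193 and 0.206), and Hspe1 under the rescaling (0.288), as limma adjusted p-values. Herpud1 was called after centring (0.139, limma adjusted p = 0.01). Depth is unknown, so no limit from it could be set.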

Other observations

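The steps by which proteins enter and leave the ER held more falls than rises. Of 31 genes of the ER translocon, signal peptidase and N-glycosylation, 6 rose, 14 fell and 11 did not pass at an adjusted p under 0.05 from limma, against 19.5% higher and 28.2% lower among all genes tested, and the median log2 fold change was −0.13. Ssr3, a subunit of the translocon-associated complex, fell to 359 ± 1.74 TPM from 517 ± 5.06 TPM (SD, n = 3 per group), which is a log2 change of −0.53 (limma adjusted p = 6.1e-06). Srp68, a protein of the signal recognition particle, fell to 75.5 ± 3.22 TPM from 111 ± 1.19 TPM (SD, n = 3 per group), which is a log2 change of −0.55. Dad1 and Stt3b, subunits of oligosaccharyltransferase, rose with log2 fold changes of 0.36 and 0.17. The median log2 fold change over all genes tested was −0.0638. After median centring, 9 genes of this list were higher and 11 lower, against 26.9% higher and 19.8% lower among all genes tested.

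Of 19 genes of COPII transport from the ER, 18 were tested, and 4 rose and 8 fell, with a median log2 fold change of −0.11. Over all genes tested, 19.5% rose and 28.2% fell, with a median of −0.0638. Lman1, a cargo receptor for glycoproteins, fell to 133 ± 5.31 TPM from 224 ± 8.30 TPM (SD, n = 3 per group), which is a log2 change of −0.75 (limma adjusted p = 3.56e-05). Sec24c, a coat subunit, had a log2 fold change of −0.66, and Tfg and Sar1a had log2 fold changes of 0.27 and 0.22. After median centring, 5 genes of this list were higher and 7 lower, against 26.9% higher and 19.8% lower among all genes tested.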
